A study of Mus musculus with 48 samples.

Results

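The genes described here encode the nuclear subunits of respiratory complexes II, III and IV and of ATP synthase, which is complex V. They were chosen by symbol from the protein-coding genes of GENCODE release M21: Sdha to Sdhd for complex II, Cyc1 and the Uqcr genes for complex III, the Cox4 to Cox8 genes for complex IV and every symbol that starts with Atp5 for complex V. The rule found 45 of the 48709 genes in the count files, with 4 in complex II, 9 in complex III, 15 in complex IV and 17 in complex V. A further gene that the rule finds in the annotation has an identifier that is not among the files' identifiers. All 45 genes passed the filter on low counts in each of the 7 comparisons.

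Complexes II, III and IV pass electrons from succinate and ubiquinol to oxygen in the inner mitochondrial membrane, and complexes III and IV pump protons as they do so. ATP synthase lets the protons flow back and uses the flow to make ATP. Most subunits are encoded in the nucleus and imported, while a few central subunits of complexes III, IV and V are encoded by mitochondrial DNA, so both genomes have to contribute to a working complex. Neurons depend on this pathway for most of their ATP.

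RNA was sequenced from 46 male C57BL/6J mice, and 2 of these mice were sequenced in 2 runs that were summed here. The tissue was the dentate gyrus of the hippocampus, although that of the 4-month samples is uncertain, as described below. Wild-type mice of 3 months (n = 5) and 8 months (n = 3) stand beside mice of the same ages without a functional Fmn2 gene, labelled FMN2 knock out (n = 5 and n = 5). Fmn2 encodes formin 2, an actin nucleator. A cross of this line with APP mice, which carry mutated human amyloid precursor protein and presenilin transgenes driven in neurons by a Thy1 promoter, gave mice of 3 months labelled FMN2-/-_APP (n = 7) or FMN2 +/+ APP (n = 9), and a last experiment compared APP mice (n = 6) with wild-type mice (n = 6) of 4 months. The labels do not say whether the knock-out and wild-type mice were littermates, and nothing states that samples of a group were taken independently beyond their being separate mice.

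Some properties of the libraries bear on the values below. Levels are given as CPM, the reads of a gene scaled to a library of fixed size, all mice on a single TMM scale. Fmn2 itself stood at 93.2 to 109 CPM in wild-type and 22.2 to 27.4 CPM in knock-out mice of 3 months, and at 90.9 ± 15.2 CPM (SD, n = 3) and 21.6 to 28.2 CPM at 8 months. In the cross it went against the labels, with 90.9 ± 6.86 CPM in the libraries labelled FMN2-/-_APP and 20.5 ± 1.48 CPM in those labelled FMN2 +/+ APP, so the cross is described only by its labels. The 4-month samples are called dentate gyrus in the tissue field, but their titles name PFC and hold the text 4x8mo, so that both the region and the labelled age of 4 months are uncertain. The summed level of 6 granule cell markers was 135 to 193 CPM in them and 610 to 1170 CPM in the other groups, and the summed level of 6 cortical projection neuron markers was 638 to 729 CPM against 120 to 351 CPM. Depth ranged from 6818809 to 43921030 counted reads. Wild-type mouse 1 of 8 months had the most reads and was on lane 6, while the other 2 wild-type mice of that age, with 6818809 and 8381078 reads, and all 5 knock-out mice, with 9175551 to 11675280 reads, were on lane 7. Counts of knock-out mice 2 and 3 of 8 months differed by a chi-square of 1.62 per degree of freedom, while the remaining pairs of these knock-out mice gave 3.5 to 6.4 and the 2 runs of a single cross mouse gave 1.72 and 2.15, so these 2 libraries were as alike as repeat runs. Markers of the choroid plexus, a tissue next to the hippocampus, were high in a few mice, with 4120 CPM in knock-out mouse 4 of 3 months and 607 and 579 CPM in knock-out mice 2 and 3 of 8 months.

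The sequence just upstream of the genes is shown for 1 gene of each complex whose genotype difference changed with age in the test described below, the gene with the smallest p among those with an entry. Promoters of nuclear respiratory genes are known for sites of nuclear respiratory factor 1 (NRF1), of the ETS family factor GABP, of SP1 and of YY1. Each stretch is the 200 bases before the RefSeq start of the gene on GRCm38.p6, read 5′ to 3′ on the gene's strand. Matches to the searched letters are in capitals. The GENCODE M21 starts of these genes lie within the stretches, for Sdhb at chr4:140961203, so part of each stretch is inside the M21 gene. The Sdhb stretch lies at chr4:140961071-140961270 on the plus strand. The others lie on the minus strand, Uqcr11 at chr10:80406822-80407021, Cox6a1 at chr5:115348959-115349158 and Atp5o at chr16:91931631-91931830.
Sdhb: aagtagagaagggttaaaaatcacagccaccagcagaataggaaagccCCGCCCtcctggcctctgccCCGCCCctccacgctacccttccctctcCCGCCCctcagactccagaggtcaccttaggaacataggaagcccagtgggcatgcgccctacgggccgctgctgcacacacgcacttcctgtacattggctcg
Uqcr11: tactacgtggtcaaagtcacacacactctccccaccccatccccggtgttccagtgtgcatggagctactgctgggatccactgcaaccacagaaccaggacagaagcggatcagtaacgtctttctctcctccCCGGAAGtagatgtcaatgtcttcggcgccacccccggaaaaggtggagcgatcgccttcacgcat
Cox6a1: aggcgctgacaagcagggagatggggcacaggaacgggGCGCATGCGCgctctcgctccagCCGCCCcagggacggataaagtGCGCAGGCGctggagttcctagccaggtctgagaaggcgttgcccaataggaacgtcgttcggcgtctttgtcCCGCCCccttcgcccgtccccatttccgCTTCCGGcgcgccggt
Atp5o: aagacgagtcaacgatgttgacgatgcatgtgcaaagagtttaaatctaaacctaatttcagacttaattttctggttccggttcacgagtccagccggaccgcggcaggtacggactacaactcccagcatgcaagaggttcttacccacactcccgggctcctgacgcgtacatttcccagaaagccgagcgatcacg

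Sdhb held 3 matches to the SP1 letters in this window, Uqcr11 held 1 ETS match, and Cox6a1 held 3 NRF1 matches, of which 2 overlap, with 1 ETS and 2 SP1 matches. Atp5o held none here. The letters searched on both strands were GCGCANGCG for NRF1, CCGGAAG for ETS factors, GGGCGG for SP1 and AAGATGGCG for YY1. Over windows of 300 bases, which reach 50 bases past the gene start, 32 of the 45 genes had an entry. The NRF1 letters were in 12 of the 32 (37.5%) and in 7.03% of the windows of 27025 genes, and the ETS letters were in 12 (37.5%) and 9.93%. The SP1 letters were in 11 (34.4%) against 38.2%, and the YY1 letters in 2, Atp5j and Atp5j2 (6.25%), against 1.64%. Atp5o and Uqcr11 are among the 12 genes with the NRF1 letters, and Sdhb is among the 12 with the ETS letters. In these cases the letters lie outside the 200 bases shown. The genes with no entry were Sdhc, Cyc1, Uqcrb, Uqcrc2, Uqcrq, Cox4i1, Cox4i2, Cox6a2, Cox6c, Atp5a1, Atp5f1, Atp5mpl and Atp5s.

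Atp5g1, Atp5g2 and Atp5g3 all encode subunit c, the ring that turns as protons pass, and their coding sequences are shown because they bear on which of the 3 a read can be counted for. The last 228 coding bases of each, from GENCODE M21 transcripts, are printed with the bases at which the 3 differ in capitals. Atp5g1 lies at chr11:96068852-96075670, Atp5g2 at chr15:102662864-102672352 and Atp5g3 at chr2:73908447-73911326, all on the minus strand of GRCm38.p6.
Atp5g1: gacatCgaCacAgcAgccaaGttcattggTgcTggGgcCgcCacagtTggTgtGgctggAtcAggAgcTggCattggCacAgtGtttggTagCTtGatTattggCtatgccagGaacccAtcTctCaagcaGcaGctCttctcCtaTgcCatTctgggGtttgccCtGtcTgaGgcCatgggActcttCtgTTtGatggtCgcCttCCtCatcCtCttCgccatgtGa
Atp5g2: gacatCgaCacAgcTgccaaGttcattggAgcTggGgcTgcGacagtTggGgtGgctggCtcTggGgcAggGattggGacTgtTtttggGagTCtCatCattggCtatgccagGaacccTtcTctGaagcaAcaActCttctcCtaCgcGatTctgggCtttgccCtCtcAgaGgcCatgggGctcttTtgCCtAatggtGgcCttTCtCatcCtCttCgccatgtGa
Atp5g3: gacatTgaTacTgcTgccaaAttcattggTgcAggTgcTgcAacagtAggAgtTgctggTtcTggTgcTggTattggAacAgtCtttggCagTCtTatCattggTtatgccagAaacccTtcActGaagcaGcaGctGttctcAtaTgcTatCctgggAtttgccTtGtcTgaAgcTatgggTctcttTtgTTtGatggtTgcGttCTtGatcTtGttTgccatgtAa

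The 3 stretches differed at 58 of the 228 positions, yet all 75 codons encoded the same amino acid in each pair. Atp5g1 and Atp5g2 were 85.1% identical, Atp5g1 and Atp5g3 79.8%, and Atp5g2 and Atp5g3 78.5%. The longest run of bases shared by a pair was 21, between Atp5g1 and Atp5g2.

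Levels were compared between genes per kilobase of the principal transcript. In wild-type mice of 3 months the highest member was Atp5b, the catalytic beta subunit of ATP synthase, at 651 ± 15.6 CPM per kb (SD, n = 5). Cox4i1, the largest nuclear subunit of complex IV, stood at 550 ± 9.54 and Cox8a at 517 ± 15.8 CPM per kb, a gap of more than their spread. Atp5a1 and Cox6a1, at 376 ± 7.48 and 372 ± 8.36 CPM per kb, differed by less than their spread. Sdha, which carries the succinate-oxidising centre, stood at 157 ± 7.4 CPM per kb. Cox7c at 7.96 ± 1.03 and Atp5l at 14 ± 0.695 CPM per kb were among the lowest members, as was Atp5s, a coupling factor, at 16 ± 1.44 CPM per kb. The files hold 4 Atp5 genes that are annotated as pseudogenes, and reads that match a near-identical copy could have been dropped or split by the authors' counting, so low levels of this kind are uncertain.

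Where a subunit has isoforms from different genes, a single isoform made up most of the level. Cox4i1 exceeded Cox4i2, the form known from lung, with 550 against 1.21 ± 0.509 CPM per kb. Cox6a1 stood at 372 and the heart and muscle form Cox6a2 at 1.95 ± 0.723 CPM per kb. Cox6b1 stood at 413 ± 9.99 and the testis form Cox6b2 at 2.81 ± 0.718 CPM per kb. Cox7a2 at 251 ± 11.8 exceeded both Cox7a2l, known for joining complexes III and IV into supercomplexes, at 44.3 ± 3.77, and the muscle form Cox7a1 at 2.75 ± 0.784 CPM per kb. Of the subunit c genes, Atp5g3 stood at 212 ± 10.8, Atp5g1 at 8.59 ± 0.205 and Atp5g2 at 2.34 ± 0.974 CPM per kb.

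**Figure D1:**
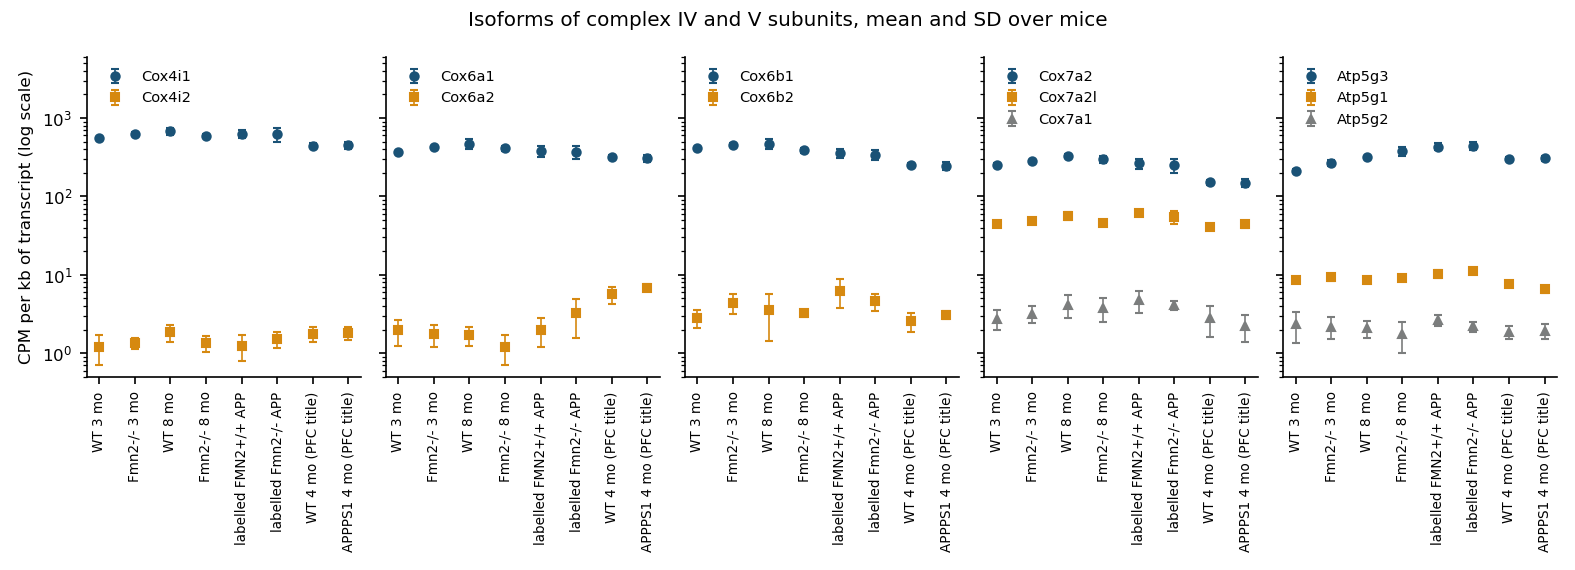
Level in CPM per kb of principal transcript (log axis) of the isoform genes of complexes IV and V in each of the 8 groups, with points for the mean and bars for the SD over mice. Fmn2-/- stands for FMN2 knock out and APPPS1 for APP mice. Cox4i1, Cox6a1, Cox6b1, Cox7a2 and Atp5g3 lay above the other genes of their subunit in every group, and Cox6a2 was higher in the 4-month groups, at 5.64 and 6.87 CPM per kb, than in the other 6 groups at 1.19 to 3.22.

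The main isoforms held their place in all 8 groups. Cox6a2 differed most in level between experiments, at 5.64 ± 1.41 CPM per kb in the wild-type and 6.87 ± 0.678 in the APP mice of 4 months against 1.95 ± 0.723 in wild-type mice of 3 months. Both wild-type groups carry lane number 5. Experiment and brain region as titled cannot be told apart here.

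The mean of log2(CPM + 0.5) over the 45 genes summarises each mouse. It was 6.07 ± 0.022 (SD, n = 5) in wild-type and 6.22 ± 0.046 (n = 5) in knock-out mice of 3 months, and 6.35 ± 0.11 (n = 3) and 6.21 ± 0.059 (n = 5) at 8 months. In the cross it was 6.29 ± 0.178 (n = 9) in the libraries labelled FMN2 +/+ APP and 6.28 ± 0.197 (n = 7) in those labelled FMN2-/-_APP, so mice varied more there than in the Fmn2 line. At 4 months it was 5.8 ± 0.05 (n = 6) in wild-type and 5.8 ± 0.112 (n = 6) in APP mice, lower than in the other experiments. Groups of the same lane number differed too, the wild-type mice of 3 and 4 months on lane 5 and the knock-out mice of 8 months and the APP mice on lane 7. The lane 7 groups also differ in genotype and labelled age. Whether a lane number means the same sequencing run in different experiments is not known. Lane, brain region as titled and experiment cannot be told apart. In whole tissue, fewer cells of a type and less RNA per cell cannot be told apart.

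**Figure D2:**
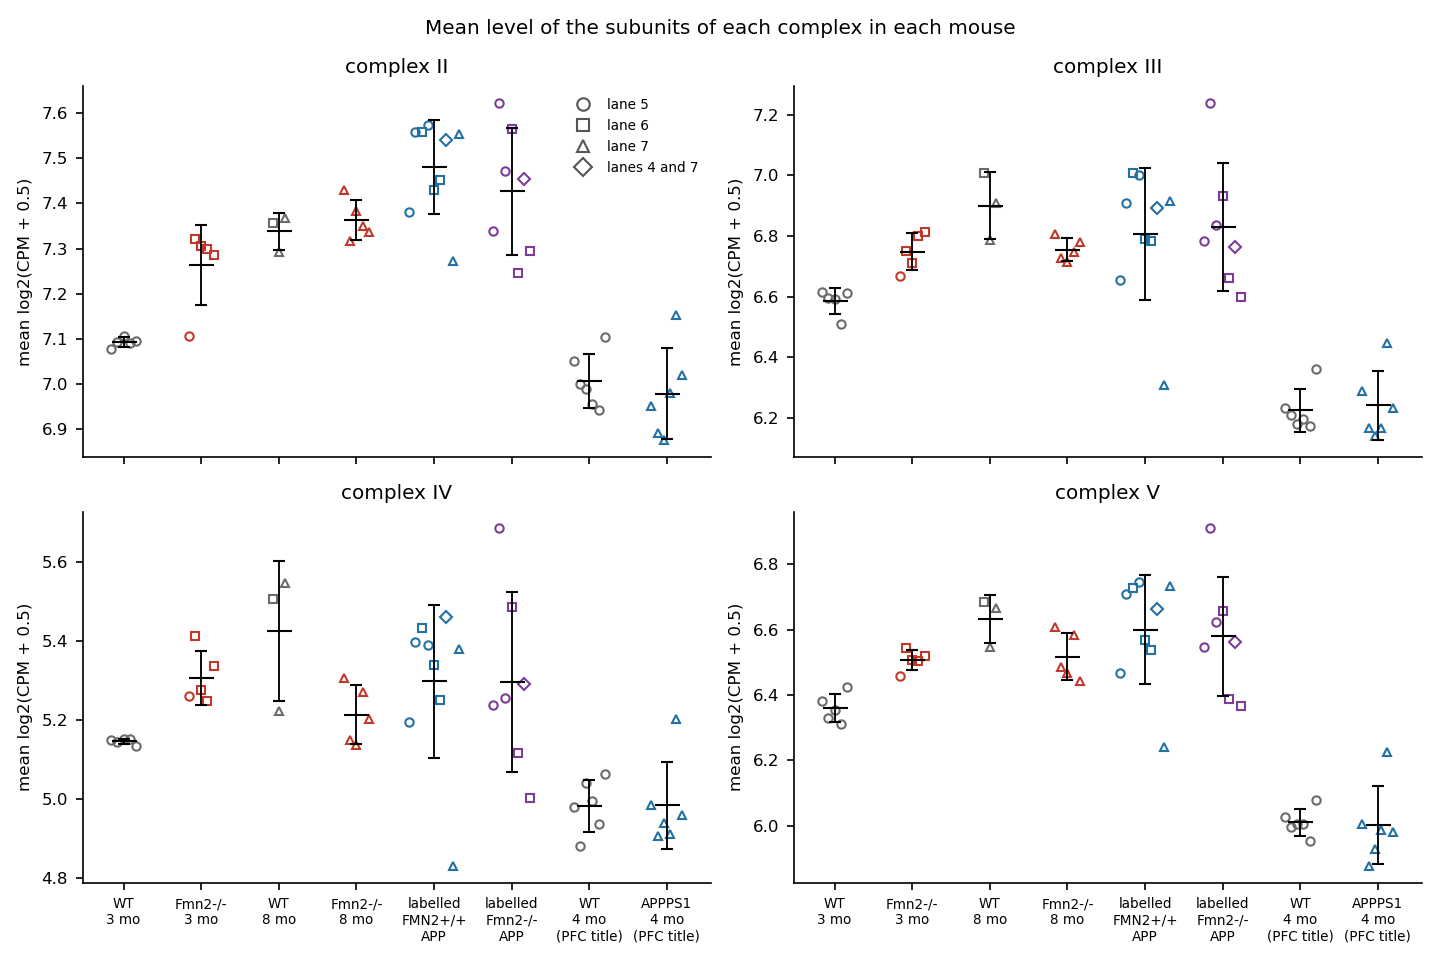
Mean log2(CPM + 0.5) over the subunits of each complex in each mouse, by group, with symbols for the lane, horizontal lines for the group mean and bars for the SD. Fmn2-/- stands for FMN2 knock out. At 3 months the 5 wild-type mice of complex IV lay between 5.14 and 5.15 and the 5 knock-out mice between 5.25 and 5.41, and at 8 months the 3 wild-type mice lay between 5.22 and 5.55 and the 5 knock-out mice between 5.14 and 5.31.

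The first comparison asked whether loss of Fmn2 changed the subunits at 3 months. Of the 45 genes, 41 had a higher fitted level in knock-out than in wild-type mice, with a median log2 difference of 0.15 against 0.004 over all 16630 genes tested. None passed the call used for the Fmn2 and age comparisons, a Benjamini-Hochberg adjusted p under 0.05 in edgeR's quasi-likelihood test with a log2 difference of at least 0.25. That call was passed upward by 0.0241% of all genes, and DESeq2 called 8 of the 45 and 0.541% of all genes in either direction. An unadjusted p under 0.05 in edgeR was reached by 22 members, all higher (48.9%), against 6.35% of all genes in that direction. The 5 knock-out mice lay wholly above the 5 wild-type mice in 16 members (35.6%), against 2.13% of all genes.

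The subunits with the smallest differences included large core proteins. Sdha differed by 0.04 on the log2 scale, the complex III core protein Uqcrc2 by -0.04 and the ATP synthase alpha subunit Atp5a1 by 0.05. Atp5e, the small epsilon subunit of the ATP synthase head, showed the largest difference in complex V. Its levels were 54.5, 51.3, 53.8, 53 and 52.8 CPM in the wild-type mice and 60.6, 73.5, 66, 68.5 and 81.7 CPM in the knock-out mice. All knock-out values were above all wild-type values, with a log2 difference of 0.40 ± 0.07 (SE) and an adjusted p of 0.084 in edgeR. Atp5k, subunit e of the membrane part, ranged from 81.1 to 89.4 CPM in wild-type and from 98.5 to 121 CPM in knock-out mice, again without overlap, with a log2 difference of 0.33 and an adjusted p of 0.0829 in edgeR.

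Sdhc, a membrane anchor of complex II, stood at 69.6, 70.5, 80.2, 77.2 and 76.6 CPM in wild-type and at 83.1, 91.9, 89.8, 89.3 and 91.6 CPM in knock-out mice, a log2 difference of 0.25 with an adjusted p of 0.141 in edgeR. In complex III, Uqcr10, a small subunit, ranged from 74.4 to 80.9 and from 85.3 to 109 CPM, with a difference of 0.32 and an adjusted p of 0.109 in edgeR. Uqcrq, the ubiquinone-binding protein of complex III, gave a difference of 0.33 with an adjusted p of 0.218 in edgeR. Cox6a1 ranged from 208 to 221 CPM in wild-type and from 236 to 254 CPM in knock-out mice, with a difference of 0.21 and an adjusted p of 0.141 in edgeR. The largest difference in complex IV was that of Cox6b2, 0.64 ± 0.23 (SE) with an adjusted p of 0.375 in edgeR, at levels of only 1.06 to 3.3 CPM.

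Lane and genotype were largely confounded at this age. All wild-type mice and knock-out mouse 1 were on lane 5, and the other 4 knock-out mice were on lane 6. Choroid plexus markers were high in knock-out mouse 4, and without it the median was 0.15 and no member was called. Within lane 5, knock-out mouse 1 was above the wild-type mean in 36 of the 45 genes, with a median log2 difference of 0.11, but that is a single mouse. With lane as a covariate the difference rests on that same mouse, since lane 6 held no wild-type mouse, and the median was again 0.11 with 36 members higher. Without knock-out mouse 1, 8 members passed the call, namely Sdhd, Cyc1, Uqcr10, Atp5e, Atp5g3, Atp5j2, Atp5k and Atp5mpl, and 0.294% of all genes passed it in either direction.

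At 8 months the same contrast ran the other way for most members. Of the 45, 34 were fitted lower and 11 higher in knock-out mice, with a median log2 difference of -0.18 against 0.006 over all 14665 genes tested. Uqcrq passed the call downward (2.22% of members), against 0.88% of all genes. An unadjusted p under 0.05 in edgeR was reached downward by 18 members (40%), against 12.5% of all genes. It was reached upward by 4 (8.89%), against 10.9%. The groups lay wholly apart, knock-out lower, in 4 members (8.89%), against 6.78% of all genes, which for 45 genes is close to the background. They lay wholly apart with knock-out higher in 5 members (11.1%), against 4.95% of all genes. In complex IV none of the 15 members was fitted higher, and none passed the call in edgeR, while 7 reached an unadjusted p under 0.05. In DESeq2, 4 of the 45 members and 5% of all genes were called.

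Uqcrq stood at 117, 76.8 and 96.7 CPM in the 3 wild-type mice and at 64.2, 63.3, 57.4, 55 and 66 CPM in the 5 knock-out mice. The groups did not overlap, and the log2 difference was -0.67 ± 0.11 (SE) with an adjusted p of 0.03 in edgeR. The call was lost in 12 of 17 alternatives, among them the fits without wild-type mouse 1 and with knock-out mice 2 and 3 summed or both left out. It was also lost with lane as a covariate, where wild-type mouse 1, alone on lane 6, no longer informs the difference. Over the alternatives the difference stayed between -0.81 and -0.51. The next members by p were Uqcr11, a small complex III subunit, at -0.45 with an adjusted p of 0.0527, and Atp5d, the delta subunit of the ATP synthase head, at -0.37 with an adjusted p of 0.054 in edgeR. Cox7a2l differed by -0.28 with an adjusted p of 0.0829 in edgeR. Sdhb, the iron-sulphur subunit of complex II, differed by -0.24 while the membrane anchor Sdhc differed by 0.22, with adjusted p of 0.13 and 0.108 in edgeR. Of the largest differences, Atp5l at -0.49 and Cox6a2 at -0.61 belong to genes of uncertain or low counts.

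Within lane 7, which holds 2 wild-type and 5 knock-out mice, 34 of the 45 genes were again lower, with a median log2 difference of -0.11. Leaving out 1 mouse at a time gave between 0 and 16 called members, and the 16 were reached without wild-type mouse 2, the mouse of lowest depth, where 20.6% of all genes were called in either direction. All 5 markers of oligodendrocytes were fitted lower in the knock-out mice of 8 months, with a median log2 difference of -0.26, a summed level of 1800 to 2590 CPM against 2460 to 3130 CPM in wild-type mice and no marker called. The summed level of astrocyte markers was 2510 to 2830 CPM against 2260 to 2550 CPM. Those of microglia, 307 to 341 against 269 to 305 CPM, and of oligodendrocyte precursors, 75.8 to 82.2 against 69.1 to 72 CPM, were higher in the knock-out mice without overlap. Of the 5 astrocyte markers 1 was called higher, against 0.252% of all genes. Of the 6 granule cell markers 1 was called lower, against 0.88%, and 3 were fitted higher, with a summed level of 725 to 882 against 767 to 803 CPM. The part of these cell types in the result was not tested.

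Whether the genotype difference itself changed between 3 and 8 months was tested as an age by genotype interaction in the 18 mice of the Fmn2 line. The interaction was negative in 41 of the 45 genes, with a median of -0.34 on the log2 scale against -0.02 over all 17046 genes tested. The call was passed downward by 17 members (37.8%), against 2.99% of all genes, and upward by none, where 1 member had an unadjusted p under 0.05. DESeq2 called 21 members, the 17 among them, and 8.22% of all genes. The medians by complex were -0.12 for complex II, -0.31 for complex III, -0.42 for complex IV and -0.23 for complex V.

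**Figure D3:**
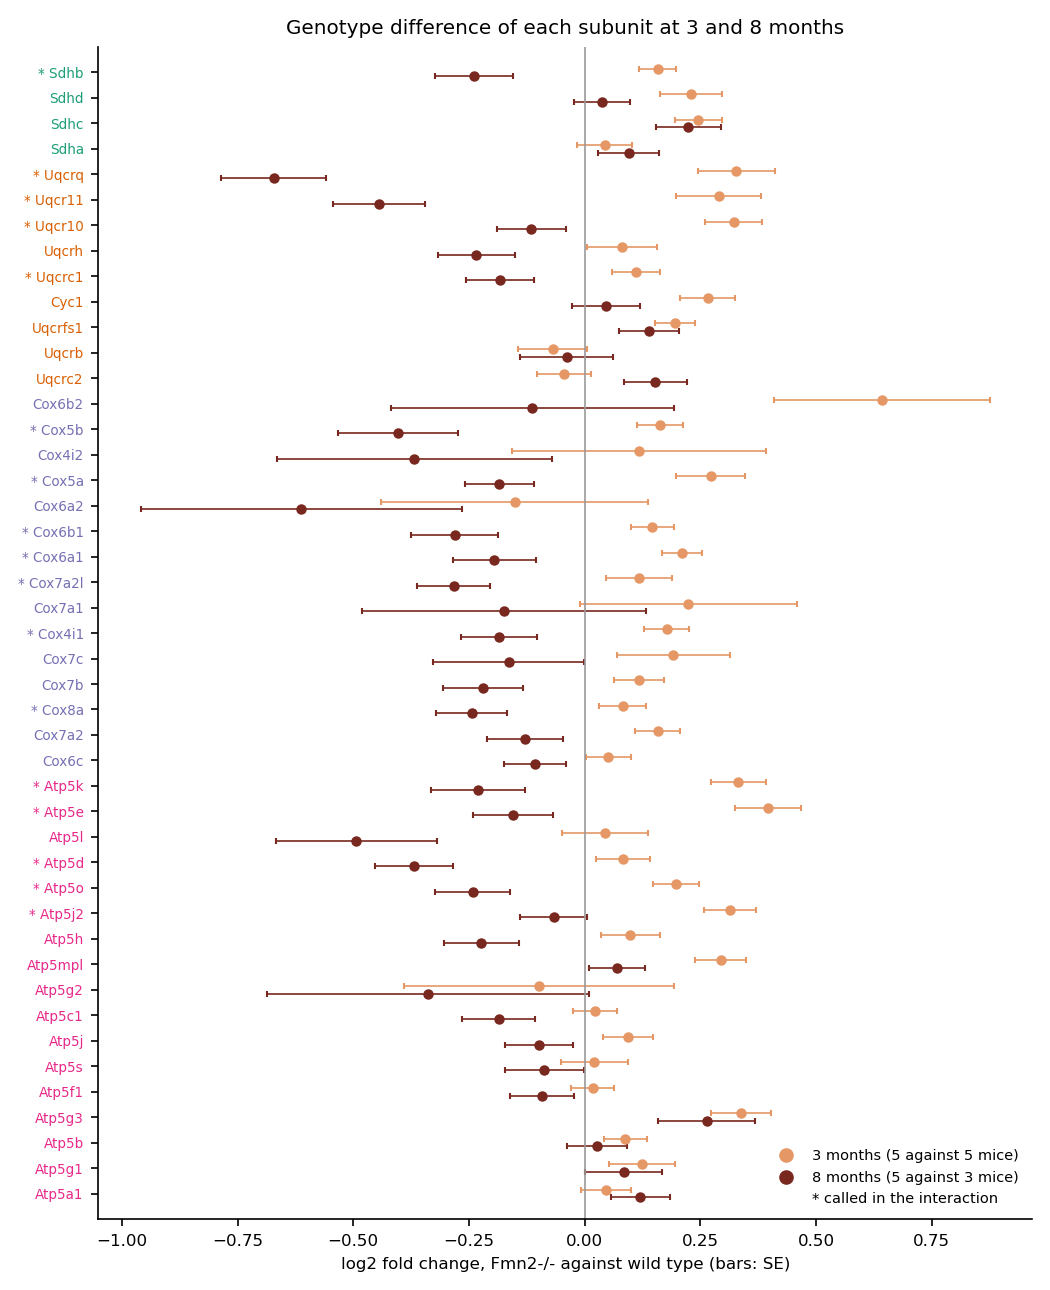
Fitted log2 difference between knock-out (Fmn2-/-) and wild-type mice (horizontal axis) of each of the 45 genes at 3 months (light points) and 8 months (dark points), with bars for the SE, names coloured by complex and stars for the 17 genes called in the interaction. All 17 had the point of 3 months above 0 and that of 8 months below 0, from Uqcrq at 0.33 and -0.67 to Atp5j2 at 0.31 and -0.07, and with an adjustment for length and GC content the interactions of Cox6a1 and Cox8a turned to 0.02 and 0.03.

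Uqcrq of complex III had the largest interaction of the 45 genes, -1.01 ± 0.15 (SE), with an adjusted p of 0.00477 in edgeR. It stood at 61.5 to 73.4 CPM in wild-type and 74.4 to 98.1 CPM in knock-out mice of 3 months, so it was higher without Fmn2 at the younger age and lower at the older. Uqcr11, whose upstream sequence is printed above, stood at 47.6, 45.5, 41.4, 36.9 and 42.4 CPM in wild-type and 47.6, 46.9, 48, 56.8 and 62.4 CPM in knock-out mice of 3 months. At 8 months its values were 79, 59.7 and 56.1 CPM in wild-type and 46.8, 49.2, 45, 49.9 and 49.1 CPM in knock-out mice, without overlap, and the interaction was -0.75 with an adjusted p of 0.0146 in edgeR. Uqcr10 at -0.45 and the core protein Uqcrc1 at -0.31 were also called, with adjusted p of 0.0201 and 0.049 in edgeR. The Rieske protein Uqcrfs1, cytochrome c1 (Cyc1) and Uqcrc2, at -0.07, -0.23 and 0.18, were not.

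In complex II the iron-sulphur subunit alone was called. Sdhb stood at 120, 127, 122, 121 and 122 CPM in wild-type and 130, 139, 137, 139 and 141 CPM in knock-out mice of 3 months. At 8 months it stood at 161, 134 and 166 CPM in wild-type and 140, 121, 128, 124 and 136 CPM in knock-out mice, where the groups overlapped, and the interaction was -0.41 with an adjusted p of 0.0194 in edgeR. Sdha, Sdhc and Sdhd had interactions of 0.04, -0.04 and -0.21. Whether Sdhb differed from these 3 was not tested.

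In complex IV, 7 of 15 members were called. They were Cox4i1 at -0.38, Cox5a at -0.47, Cox5b at -0.58, Cox6a1 at -0.42, Cox6b1 at -0.44, Cox7a2l at -0.42 and Cox8a at -0.34, with adjusted p from 0.0257 to 0.0428 in edgeR. Cox6a1 stood at 301, 226 and 277 CPM in wild-type and at 257, 226, 226, 221 and 237 CPM in knock-out mice of 8 months, so wild-type mouse 2 lay among the knock-out mice. The same mouse was the lowest of the 3 wild-type mice for Cox4i1, Cox5a, Cox5b, Cox6b1 and Cox7a2l. Cox6b2 had the largest interaction of the complex, -0.78, with an adjusted p of 0.251 in edgeR and at low counts.

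In complex V the called members were the head subunits Atp5d at -0.47 and Atp5e at -0.56, the stalk subunit Atp5o (OSCP) at -0.45, and Atp5j2 (subunit f) at -0.40 and Atp5k at -0.58 in the membrane part. Atp5o had the smallest p of these, with an adjusted p of 0.0155 in edgeR. It stood at 135, 135, 140, 139 and 130 CPM in wild-type and 145, 149, 168, 165 and 153 CPM in knock-out mice of 3 months, and at 172, 155 and 178 against 161, 137, 131, 135 and 145 CPM at 8 months. The alpha subunit Atp5a1 and the catalytic beta subunit Atp5b had interactions of 0.06 and -0.07, and Atp5g3 one of -0.09.

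**Figure D4:**
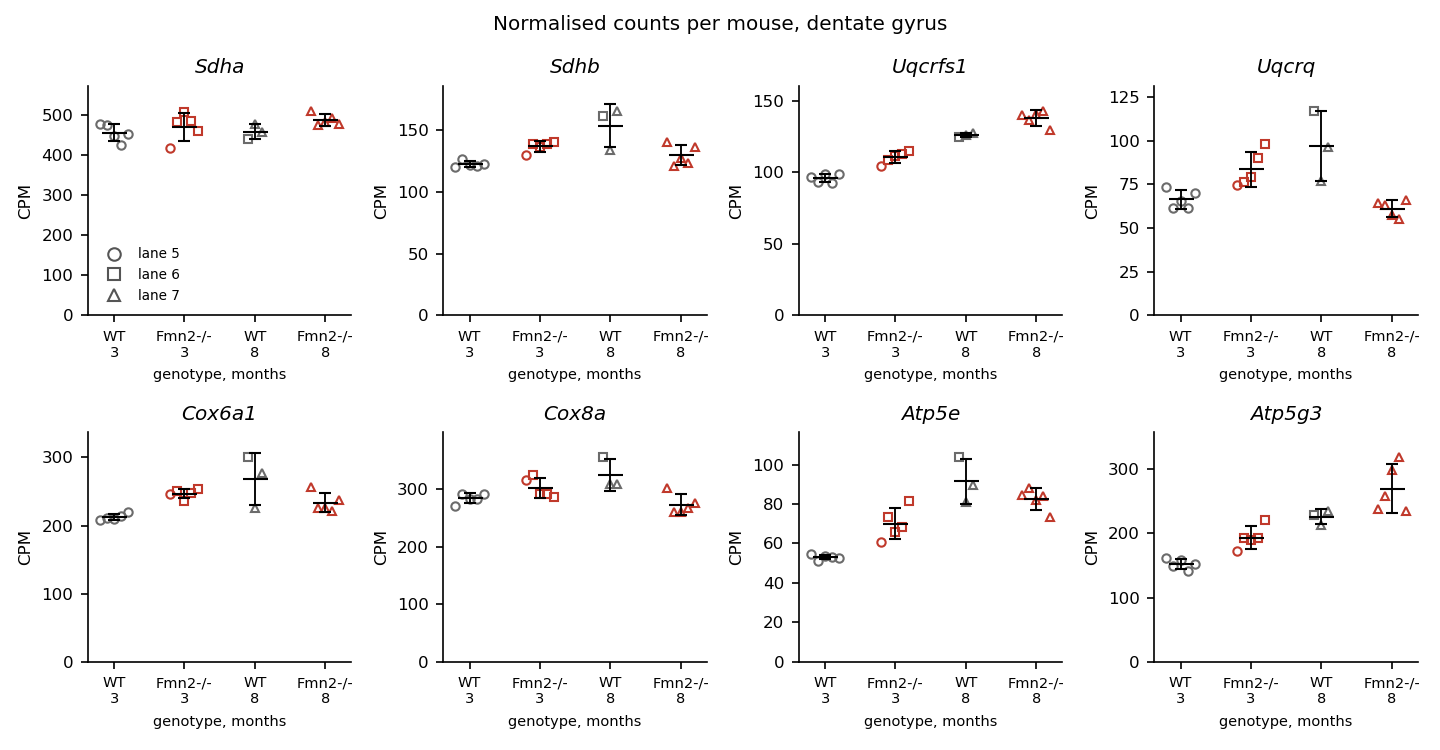
Level in CPM (axis from 0) of Sdha, Sdhb, Uqcrfs1, Uqcrq, Cox6a1, Cox8a, Atp5e and Atp5g3 in each mouse of the Fmn2 line by genotype and age in months, with symbols for the lane, lines for the mean and bars for the SD. Uqcrq reached 117 CPM in wild-type mouse 1 of 8 months and 55 to 66 CPM in the knock-out mice of that age, while Uqcrfs1 and Atp5g3 were higher at 8 than at 3 months in both genotypes.

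The number of calls in the interaction depended on few libraries. Without wild-type mouse 1 of 8 months, Uqcrq alone was called, and without wild-type mouse 3 there were 3 calls, against 22 without wild-type mouse 2. The share of all genes called in these 3 fits, in either direction, was 0.0465%, 0.559% and 15.9%. With knock-out mice 2 and 3 summed to 1 sample there were 7 calls, Sdhb, Uqcr10, Uqcr11, Uqcrq, Atp5e, Atp5k and Atp5o. With both left out, which was added after the data were seen, Uqcrq alone was called. With lane as a covariate none was, and the median was -0.24, with the difference at 3 months resting on knock-out mouse 1. The median interaction stayed between -0.37 and -0.28 with any single mouse left out.

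Fold changes also followed transcript composition across all genes. Over 17003 genes the interaction had a Spearman correlation of -0.46 with GC content and of 0.32 with exon length. Members are short, with a median exon length of 1675 bases against 4091 for all genes tested. Their median GC content was 50.1% against 49.9%, and among the 45 the correlation of the interaction with GC content was -0.47. Within the 45 genes, the 20 with principal transcripts under 700 bases had a median interaction of -0.41, and the 12 of 1200 bases or more had a median of -0.07. After an adjustment for length and GC content per sample the median was -0.19, Uqcrq alone was called, and Cox6a1 and Cox8a turned to 0.02 and 0.03. The part of composition in the result was not tested beyond this fit.

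The age comparison in wild-type mice used the same samples on the other axis. From 3 to 8 months, 42 of the 45 genes were fitted higher, with a median log2 difference of 0.32 against 0.02 over all 16325 genes tested. The call was passed upward by 22 members (48.9%), against 3.9% of all genes, and downward by none, where none had an unadjusted p under 0.05 either. The 3 older mice lay wholly above the 5 younger mice in 27 members (60%), against 9.56% of all genes. The called genes were 3 of 4 in complex II, 5 of 9 in complex III, 7 of 15 in complex IV and 7 of 17 in complex V.

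Atp5e rose most among the called genes, by 0.80 ± 0.07 (SE) with an adjusted p of 0.00171 in edgeR, from 51.3 to 54.5 CPM at 3 months to 103.8, 81.1 and 89.5 CPM at 8 months. It was called in all 14 alternatives, as was Atp5j2, which rose by 0.55. Atp5mpl, a small proteolipid of ATP synthase, stood at 59.4, 63.1, 70.8, 65.4 and 70.2 CPM in the younger and at 101.8 to 104.4 CPM in the 3 older mice, a rise of 0.66. Atp5g3 rose by 0.58, Atp5k by 0.48, Atp5h by 0.37 and Atp5o by 0.32.

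In complex III both electron-carrying subunits and 3 small subunits were called. Cyc1, which carries cytochrome c1, went from 111 to 121 CPM at 3 months to 162, 149 and 155 CPM at 8 months, a rise of 0.42, and Uqcrfs1, the Rieske iron-sulphur protein, from 92.8 to 99.1 CPM to 125, 126 and 127 CPM, a rise of 0.40. Uqcr11 rose by 0.63, Uqcrq by 0.57 and Uqcr10 by 0.54. In complex II, Sdhd rose by 0.37, Sdhb by 0.34 and Sdhc by 0.31, and Sdha differed by 0.02. In complex IV, Cox7a2 rose by 0.40, Cox7a2l by 0.36, Cox6c by 0.36, Cox5a by 0.35, Cox6a1 by 0.35, Cox4i1 by 0.31 and Cox7b by 0.27. Cox7a1 had the largest value there, 0.66, at low counts and with an adjusted p of 0.174 in edgeR.

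Lane and age coincide in the wild-type mice, since all 5 younger mice were on lane 5 and none of the older, so the 2 cannot be told apart. Leaving out 1 mouse at a time gave 8 to 28 called members, with 8 without wild-type mouse 1 of 8 months, where 0.899% of all genes were called in either direction, and 28 without wild-type mouse 2, where 18.9% were. With the adjustment for length and GC content 12 members and 4.42% of all genes were called, and the median of the members was 0.22.

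In the knock-out mice the same step in age showed no common direction, with 22 members fitted higher and 23 lower and a median log2 difference of -0.004 against -0.006 over all 15752 genes tested. The call was passed upward by 4 members (8.89%), against 2.52% of all genes, and downward by 2 (4.44%), against 3.84%. Atp5mpl rose by 0.42 ± 0.04 (SE) with an adjusted p of 0.000828 in edgeR, from between 76.7 and 84.2 CPM to between 106.1 and 111.5 CPM. Atp5g3 rose by 0.49, Uqcrfs1 by 0.33 and Sdhc by 0.27, with adjusted p of 0.00784, 0.00218 and 0.00854 in edgeR. Uqcrq fell by 0.45 and Atp5d fell by 0.32, with adjusted p of 0.00814 and 0.00694 in edgeR. Cox6b1 at -0.24 and Cox6c at 0.18 had adjusted p of 0.0301 and 0.034 in edgeR but were under the limit on size. The largest value of complex IV was that of Cox6a2, -0.52, at low counts and with an adjusted p of 0.364 in edgeR. With knock-out mice 2 and 3 of 8 months left out, an alternative added after the data were seen, Uqcrfs1 and Atp5mpl remained called. Knock-out mouse 1 of 3 months was on lane 5, the others on lane 6 and all older mice on lane 7, so age and lane cannot be told apart here either.

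**Figure D5:**
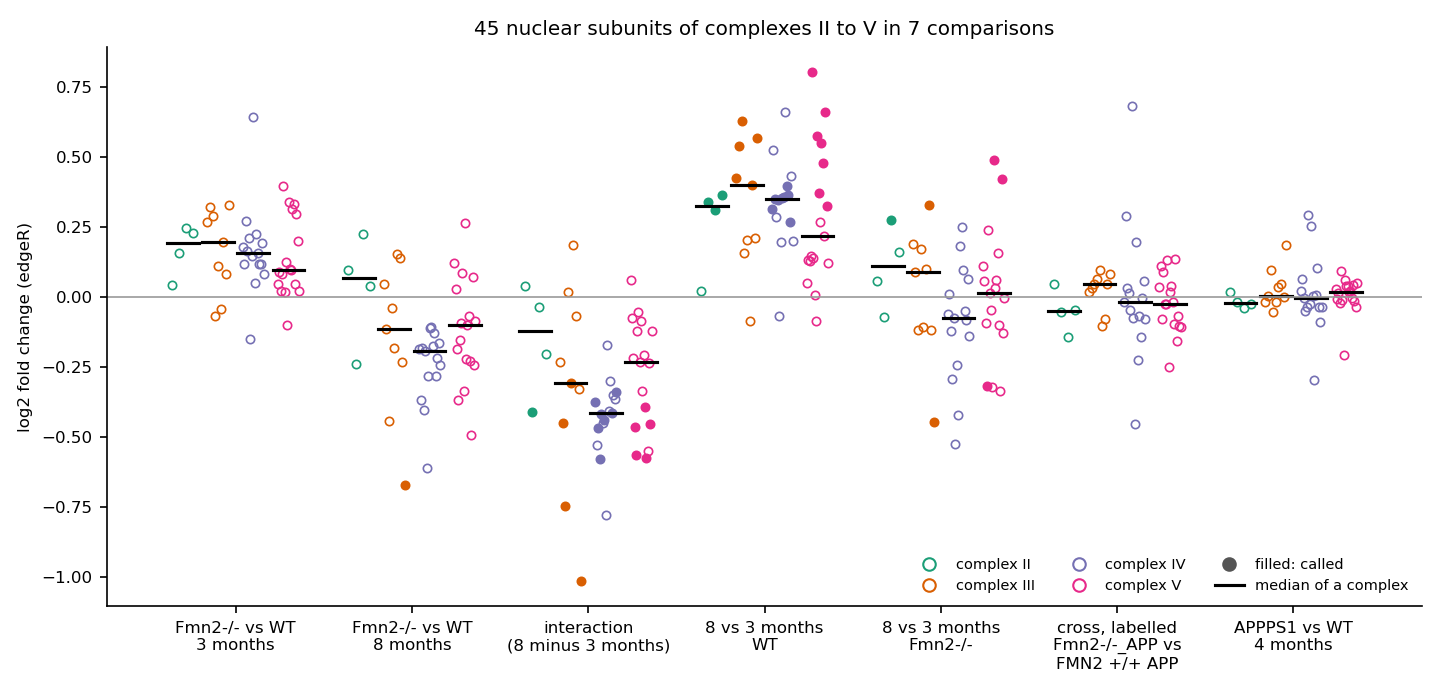
Fitted log2 difference (vertical axis) of each of the 45 genes in the 7 comparisons, with colours for the complex, filled points for called genes and black lines for the median of a complex. The medians over all 45 were 0.15 and -0.18 for genotype at 3 and 8 months, -0.34 for the interaction, 0.32 for age in wild-type and -0.004 in knock-out mice, and -0.02 and 0.002 in the 2 amyloid comparisons.

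In the cross, 21 of the 45 genes were fitted higher and 24 lower in the libraries labelled FMN2-/-_APP than in those labelled FMN2 +/+ APP, with a median log2 difference of -0.02 against 0.006 over all 16656 genes tested. None passed the call for the amyloid comparisons, an adjusted p under 0.05 in edgeR and a log2 difference of at least 0.5, which 0.438% of all genes passed upward and 0.336% downward, and DESeq2 called none either. An unadjusted p under 0.05 was reached by 1 member, against 8.87% of all genes upward and 7.77% downward. It was Cox6a2, at 0.68 ± 0.29 (SE) with an adjusted p of 0.241 in edgeR, whose level ranged from 0.512 to 2.62 CPM with a median of 1.3 CPM in the libraries labelled FMN2 +/+ APP and from 1.22 to 4.37 CPM with a median of 1.9 CPM in those labelled FMN2-/-_APP. The smallest p in complexes II, III and V belonged to Sdhc at -0.15, Uqcrc2 at -0.10 and Atp5g2 at -0.25, with adjusted p from 0.327 to 0.482 in edgeR.

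The lanes of the cross disagreed in direction. Within lane 5, with 3 mice in each group, 33 members were higher in the libraries labelled FMN2-/-_APP, with a median of 0.06. Within lane 6, also with 3 in each, 38 were lower, with a median of -0.17, and 38 were lower between the pair of mice run on lanes 4 and 7, with a median of -0.15. With lane as a covariate the median was -0.05. The library labelled FMN2 +/+ APP of replicate 8 was the lowest of its group, with a mean log2(CPM + 0.5) of 5.88 over the 45 genes, and its Uqcrq level was 26.6 CPM against 50.2 to 84 CPM in the other 8. Choroid plexus markers reached 9130 and 5990 CPM in the libraries of replicates 4 and 5 of this group. Leaving these 2 out, an alternative added after the data were seen, gave a median of -0.02 and no call.

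In the APP mice of 4 months, 24 members were fitted higher and 21 lower than in wild-type mice, with a median log2 difference of 0.002 against 0 over all 16733 genes tested. None was called in edgeR, against 2.19% of all genes upward and 0.155% downward, and DESeq2 called none. An unadjusted p under 0.05 was reached upward by none, against 7.55% of all genes, and downward by 1, against 6.77%. That member was Atp5g1, at 19.6, 18.3, 21, 19, 20.9 and 22.3 CPM in wild-type and 15.9, 15.4, 16.3, 19.1, 19.4 and 18.1 CPM in APP mice. The groups overlapped, with a log2 difference of -0.21 ± 0.07 (SE) and an adjusted p of 0.144 in edgeR. Uqcrq at 0.18, Cox6a2 at 0.29 and Sdhc at -0.04 had the smallest p of their complexes, with adjusted p from 0.351 to 0.841 in edgeR, and Cox7a1 had the largest difference of complex IV, -0.30, with an adjusted p of 0.7. All wild-type mice were on lane 5 and all APP mice on lane 7, so lane and genotype cannot be told apart.

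Neighbouring genes of the pathway were counted from fixed lists. For complex I, which feeds electrons from NADH into the chain, 37 genes were taken by symbol, Ndufa, Ndufb, Ndufc, Ndufs or Ndufv with a number. The place of each gene in the complex, for example of Ndufa4, was not checked. Of the 37 genes, 19 were called lower in the interaction (median -0.35), against 2.99% of all genes. With age in wild-type mice 21 were called higher (median 0.30), against 3.9%, and with age in knock-out mice 2 were called higher and 4 lower, against 2.52% and 3.84%. Ndufb7 and Ndufa13 were called in the interaction, at -0.90 and -0.76, and were lower in knock-out mice of 8 months, at -0.57 and -0.55. At 3 months Ndufa3 was the only one of the list called, higher by 0.33 with an adjusted p of 0.0488 in edgeR.

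Of the 6 mitochondrially encoded subunits of complexes III to V, only mt-Co1 and mt-Cytb passed the filter on low counts, and neither was called in any comparison. Their interactions were 0.13 and -0.18. Of 35 assembly factors, 32 were tested in the Fmn2 line. Cox14, Uqcc2 and Uqcc3 were called lower in the interaction, at -0.50, -0.54 and -0.40, against 2.99% of all genes. All 3 were among the 6 called higher with age in wild-type mice, against 3.9% of all genes. Sdhaf4, Coa6 and Cmc1 rose with age in knock-out mice, by 0.58, 0.48 and 0.36, against 2.52% of all genes called higher. Atpif1, the inhibitor of ATP synthase, fell by 0.47 with age in knock-out mice, where 3.84% of all genes were called lower. Of 13 citric acid cycle genes, Ogdh alone was called, lower by 0.28 on the log2 scale with age in wild-type mice, against 2.08% of all genes. Of 8 regulators, Esrra, a nuclear receptor known for acting on respiratory genes, was called lower in the interaction at -0.60 and with age in knock-out mice at -0.37. The coactivator Ppargc1b was called lower with age in wild-type mice at -1.05. The shares of all genes called lower in these comparisons were 2.99%, 3.84% and 2.08%. In the cross and in the APP mice no gene of these lists was called.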

How the data were processed

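The authors deposited raw counts of reads per gene, 1 file for each sequencing run. According to the study's methods the reads of TruSeq RNA libraries were aligned to mm10 with STAR and counted with HTSeq. Whether counting used strand is not given in the sources used here, so overlapping and antisense genes cannot be told apart. The 48 files gave 46 mice in 8 groups taken from the labels, and 48349 of the 48709 identifiers matched GENCODE M21.

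Each comparison was fitted over all genes that passed filterByExpr with edgeR 4.0.16 in R 4.3.3 (TMM, quasi-likelihood test, Benjamini-Hochberg adjustment over all genes tested), on the samples compared alone. The fits were tested on simulated data with known changes. Levels are CPM on TMM library sizes of all 46 mice, and levels per kb use the median length of the principal transcripts. Groups that lay wholly apart were counted on CPM. The members and the gene lists were chosen with earlier results of these data known. Genes named with values are every member called in a comparison, in each complex and comparison the member with the smallest p and that with the largest log2 difference, and the isoform genes. Alternatives were DESeq2 1.42.0, RLE size factors, no filter, a block for the replicate number, an adjustment for exon length and GC content (splines with 4 degrees of freedom), lane as a covariate, the near-identical libraries summed, and each mouse left out in turn. Deviations of same-numbered mice had correlations from -0.29 to 0.27, with 3 to 7 shared numbers per comparison. These are too few to decide whether the numbers mark pairs, and the main fits did not take them as pairs. Intervals and p-values reflect the spread between these mice only.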

Additional observations from a re-analysis of the deposited data

Results flagged for a closer look

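A test of the difference between ages singled out 17 genes whose genotype difference changed from 3 to 8 months. On the log2 scale the change was -0.41 for Sdhb, -0.451 for Uqcr10, -0.748 for Uqcr11, -0.308 for Uqcrc1 and -1.014 for Uqcrq. It was -0.375 for Cox4i1, -0.469 for Cox5a, -0.579 for Cox5b, -0.419 for Cox6a1, -0.44 for Cox6b1, -0.415 for Cox7a2l and -0.339 for Cox8a. In ATP synthase it was -0.465 for Atp5d, -0.563 for Atp5e, -0.395 for Atp5j2, -0.576 for Atp5k and -0.453 for Atp5o. Uqcrq was called in 24 of 27 alternatives, Uqcr11 and Atp5e in 21, and Uqcrc1 in 3. Of the 27, 18 each left out a single mouse and so share most of their data. The 3 in which Uqcrq was not called were lane as a covariate, the replicate block, and the block with the length and GC adjustment.

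Single mice lay far from the rest of their group by Dixon's test, which chance passes in about 1 of 20 groups. This held for 9 of 35 combinations of a group with a mean over genes, on the scale of mean log2(CPM + 0.5), and the means of the complexes and of all 45 genes overlap. The wild-type mice of 8 months (n = 3) were too few for this test, so that group is not among those tested. The library labelled FMN2 +/+ APP of replicate 8 was lowest over all 45 genes at 5.88, in complex III at 6.31 and in complex IV at 4.83. APP mouse 5 of 4 months was highest over all 45 genes at 6.01, in complex IV at 5.20 and in complex V at 6.22. Knock-out mouse 1 of 3 months was lowest in complex II at 7.11, wild-type mouse 4 of 3 months was lowest in complex III at 6.51, and wild-type mouse 6 of 4 months was highest in complex III at 6.36. Among single genes, 42 of 315 combinations of gene and group passed the same test.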

How the results depend on the processing

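The members called at 3 months numbered 0, 8 under DESeq2 (0.541% of all genes) and 1 with no filter (0.0451%). At 8 months 1 was called, 4 under DESeq2 (5%), 6 with no filter (3.93%) and 0 (at most 0.0682%) with the length and GC adjustment, with lane as a covariate and with the near-identical knock-out libraries summed or, added after the data were seen, both left out. The interaction gave 17 calls, and 1 with the length and GC adjustment (0.117%), 0 with lane (0.00587%), 7 with the 2 libraries summed (1.33%) and 1 with both left out (0.347%). Age in wild-type mice gave 22 calls and 12 with the adjustment (4.42%), and age in knock-out mice 6, and 2 with both libraries left out (1.13%). Leaving out each mouse in turn gave 0 to 8 calls for genotype at 3 months, 0 to 16 at 8 months, 1 to 22 in the interaction, 8 to 28 and 5 to 8 for age in wild-type and knock-out mice, and 0 in both amyloid comparisons. The share of all genes called in either direction moved too, from 0.0177% to 0.294% at 3 months and from 0.0268% to 20.6% at 8 months. It was 0.0465% to 15.9% in the interaction, and 0.899% to 18.9% and 3.4% to 7.01% for age in wild-type and knock-out mice. In the cross it was 0.44% to 1.02%, and for APP 2.17% to 2.49%. The numbers of the mice were not taken as pairs, though the correlations of so few shared numbers cannot decide this. With a replicate block the calls were 0 at 8 months (0.0277% of all genes), 0 in the interaction (0%), 6 and 2 for age in wild-type and knock-out mice (1.42% and 0.653%), and with the block and the adjustment together 0, 0, 2 and 0 (0.0346%, 0%, 0.479% and 0%). The cause of these shifts was not tested.

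The adjustment for length and GC content moved the median log2 difference to 0.105 at 3 months, -0.194 in the interaction and 0.223 for age in wild-type mice, and with the block added the median was -0.07 at 8 months, -0.19 in the interaction and 0.199 for age in wild-type mice. Lane as a covariate, with the difference at 3 months resting on knock-out mouse 1, moved the interaction to -0.243. Cox6a1 turned to 0.022 with the adjustment and 0.016 with the block added, and Cox8a to 0.031 with the adjustment. Without single mice the median stayed within 0.12 to 0.167 at 3 months, -0.228 to -0.115 at 8 months, -0.366 to -0.28 in the interaction, 0.268 to 0.375 and -0.055 to 0.014 for age in wild-type and knock-out mice, -0.087 to 0.028 in the cross and -0.057 to 0.026 for APP. A fit with lane could not be estimated for either age comparison or for APP. Depth limits the 8-month groups most, where 7 of 8 mice had 6818809 to 11675280 reads.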
